A study of Mus musculus with 6 samples.

Results

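The Gzmk-positive effector CD8 T cells described here are 362 barcodes, 272 from day-13 and 90 from day-19 tumors, of 4759 CD8 T cells and 7847 T cell barcodes in all. They were chosen from the RNA counts themselves. A barcode needed at least 5000 gene UMIs, at most 10% mitochondrial UMIs and a place in a T cell receptor (TCR) table. UMIs, unique molecular identifiers, count captured RNA molecules. Cd8a and Cd8b1 together had to reach 1 UMI and Gzmk 2. The barcode could have no UMI of Cd4, Tcf7, Havcr2, Gzmc, Gzmf or Mki67, and at most 1 of Klra1, Klra6 and Klra7 together. Tcf7 marks progenitor and memory cells, Havcr2 (Tim-3) terminal exhaustion and Mki67 dividing cells, so the rule leaves out cells in which those transcripts were captured. They were compared with all CD8 T cells that had no Gzmk UMI (1792 at day 13 and 1231 at day 19). A stricter comparison used the 232 and 164 cells without Gzmk that met every other limit of the rule, called matched cells below. Since the same counts chose the cells and were then compared, every RNA difference below is a description, with no test.

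CT2A, a mouse glioma line, was grown inside the skull of wild-type C57BL/6J mice aged 6-8 weeks. All groups share this host, tumor and sort, and no tumor-free or treated group was used. T cells carrying CD3 with CD4 or CD8 were sorted from 16 tumors at day 13, with 4 mice pooled per replicate, and from 4 tumors at day 19. Each day was 1 capture on the 10x 5' platform, giving 1 gene expression, 1 antibody tag and 1 TCR library, or 6 samples in all, so day and capture cannot be told apart.

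Granzyme K is a serine protease of cytotoxic granules, less directly lethal to target cells than granzyme B, and Gzmk-expressing CD8 T cells are found in inflamed tissues, aged animals and tumors. Such cells are usually described as effector or effector-memory cells that make chemokines such as CCL5. In tumors, CD8 T cells under lasting antigen exposure pass from progenitor states that keep Tcf7 toward terminally exhausted states with several inhibitory receptors.

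A TCR is a clone's inherited label and was not used to pick the cells beyond the presence of a chain. The CDR3 is the stretch of each receptor chain that contacts the peptide, and cells with the same CDR3 nucleotides in both chains are taken as 1 clonotype. The CDR3 sequences of the largest clonotypes among the Gzmk-positive effector cells are shown because they mark clones among those with most effector cells on each day, 3 of which are followed below into other CD8 states. Capitals are not used, since the whole run is the CDR3, written 5′ to 3′.
Day 13 clonotype 1, TRAV7-1 TRAJ23: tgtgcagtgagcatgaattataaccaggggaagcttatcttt
Day 13 clonotype 1, TRBV12-1 TRBJ2-2: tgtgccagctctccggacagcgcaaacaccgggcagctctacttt
Day 13 clonotype 2, TRAV16N TRAJ18: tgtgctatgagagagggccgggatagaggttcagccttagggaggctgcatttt
Day 13 clonotype 2, TRBV5 TRBJ1-1: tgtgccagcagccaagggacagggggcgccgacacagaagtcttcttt
Day 13 clonotype 3, TRAV16D-DV11 TRAJ43: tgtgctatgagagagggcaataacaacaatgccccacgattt
Day 13 clonotype 3, TRBV14 TRBJ2-5: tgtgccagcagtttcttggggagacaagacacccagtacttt
Day 19 clonotype 1, TRAV8-1 TRAJ26: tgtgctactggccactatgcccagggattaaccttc
Day 19 clonotype 1, TRBV10 TRBJ2-1: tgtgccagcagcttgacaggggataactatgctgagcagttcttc
Day 19 clonotype 2, TRAV8N-2 TRAJ6: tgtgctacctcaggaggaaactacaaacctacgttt
Day 19 clonotype 2, TRBV15 TRBJ2-1: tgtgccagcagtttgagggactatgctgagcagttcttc
Day 19 clonotype 3, TRAV8N-2 TRAJ39: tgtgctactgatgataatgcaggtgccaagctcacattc
Day 19 clonotype 3, TRBV16 TRBJ2-4: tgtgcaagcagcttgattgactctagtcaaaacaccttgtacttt
The largest held 11 of the 228 day-13 effector cells with exactly 1 TRA and 1 TRB chain. The day-19 clonotypes held 5, 3 and 2 of 56.

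Each day's TCR calls came as 4 tables, called contig sets here, which share no barcode. No label ties a set to a replicate or mouse, so the 4 values per day show a spread and are not treated as replicates. Sets of a day share receptors: between 5.88% and 15.8% of the expanded clonotypes of a day-13 set recurred in another set, and between 31.6% and 46.2% at day 19. The Gzmk-positive effector cells had a median of 7463.5 gene UMIs at day 13 and 6836 at day 19, against 6981.5 and 9164 in the cells without Gzmk. Their summed UMIs came to 2224085 and 730105. No effector barcode occurred on both days, while 28 T cell barcodes did. T cell markers summed to 4996 CPM (counts scaled to 1000000 UMIs per sum) in the day-13 effector cells and 5024 at day 19, against 3106 and 3290 in the cells without Gzmk. All 7 T cell genes had positive log2 ratios on each day, with medians of 0.58 and 0.45, a shift to be kept beside the list medians below. Neutrophil and erythroid markers summed to 7.64 and 4.11, with 6 of 7 at 0. The 12 macrophage and microglia markers summed to 2781 CPM at day 13 (sets 1270 to 8349) and 3369 at day 19 (2575 to 5099), against 2265 and 2750 in the cells without Gzmk, with no marker at 0. Of 874 day-13 and 286 day-19 barcodes outside the TCR tables with macrophage RNA and no Cd3, Cd4 or Cd8 UMI, 5 and 1 had a Gzmk UMI and none had 2. Matched cells at day 13 carried more dendritic and CD4 T cell RNA than effector cells. Their 12 dendritic markers summed to 5128 CPM (sets 1605 to 9357.5), against 2314. Their 7 CD4 and regulatory T cell markers summed to 473.5, against 282, and Foxp3 was at 50.9 against 2.25. At day 19 the sums were 2694 against 2209 and 357 against 408. The part of this RNA in ratios against matched cells was not tested.

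Levels of the label's markers are given as a description, since the rule itself set Gzmk. The markers were chosen with earlier results of these data known. Within the effector cells the median was 5 Gzmk UMIs at day 13 (highest 23) and 3 at day 19 (highest 14). Gzma, a granzyme encoded beside Gzmk (chr13:113093824-113100981 and chr13:113171630-113180965, mm10), was clearly higher in them, as described below. Car2, carbonic anhydrase 2, stood at 111, 162, 104 and 67.4 CPM in the 4 day-13 sets and at 25.6, 86.8, 62.6 and 83.7 at day 19. Cells without Gzmk had 27.1 and 22.2 in sum, giving log2 ratios of 2.28 (95% counting interval 2.06 to 2.50) and 1.82 (1.38 to 2.23). Gpr55, a lipid receptor, had a log2 ratio of 2.64 (2.19 to 3.09) at day 13 and 1.16 (-0.02 to 2.16) at day 19, where 2 of 4 sets were at 0. Gzmm, the other granzyme among the markers, did not follow. It had 12.6 CPM against 7.89 at day 13, with UMIs in 17 of 272 effector cells, and 4.11 against 5.43 at day 19, with UMIs in 3 of 90. With every cell thinned to 5000 UMIs, 5.15% of day-13 effector cells had a Gzmm UMI (6.25% unthinned) against 3.40% of cells without Gzmk (4.41% unthinned) and 0.878% of CD4 T cells. Gzma and Car2 were thus higher in the group, but not present in every cell: Car2 UMIs were found in 120 of 272 effector cells at day 13 and 25 of 90 at day 19.

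Gzmk-positive effector cells made up 9.19% of CD8 T cells at day 13 (95% exact binomial interval 8.18 to 10.3) and 5.0% at day 19 (4.04 to 6.11). The day-13 sets held 27 of 336, 151 of 1106, 65 of 989 and 29 of 528 CD8 cells, or 8.04%, 13.7%, 6.57% and 5.49%. The day-19 sets held 5 of 199, 47 of 871, 19 of 360 and 19 of 370, or 2.51%, 5.40%, 5.28% and 5.14%. Every day-13 set was above every day-19 set, the narrowest gap being 5.49% against 5.40%. All CD8 cells with at least 2 Gzmk UMIs numbered 941 at day 13 and 438 at day 19, so the effector rule kept 272 and 90 of them. Of those 941 and 438, 340 and 92 had a Tcf7 UMI, 242 and 230 a Havcr2 UMI, 55 and 119 a Gzmc or Gzmf UMI, and 291 and 152 an Mki67 UMI. The Havcr2, Gzmc and Gzmf limits thus removed a larger share of Gzmk-positive cells at day 19, and the Tcf7 limit a smaller one. Without day-13 set 2 the day-13 share was 6.53%.

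**Figure D1:**
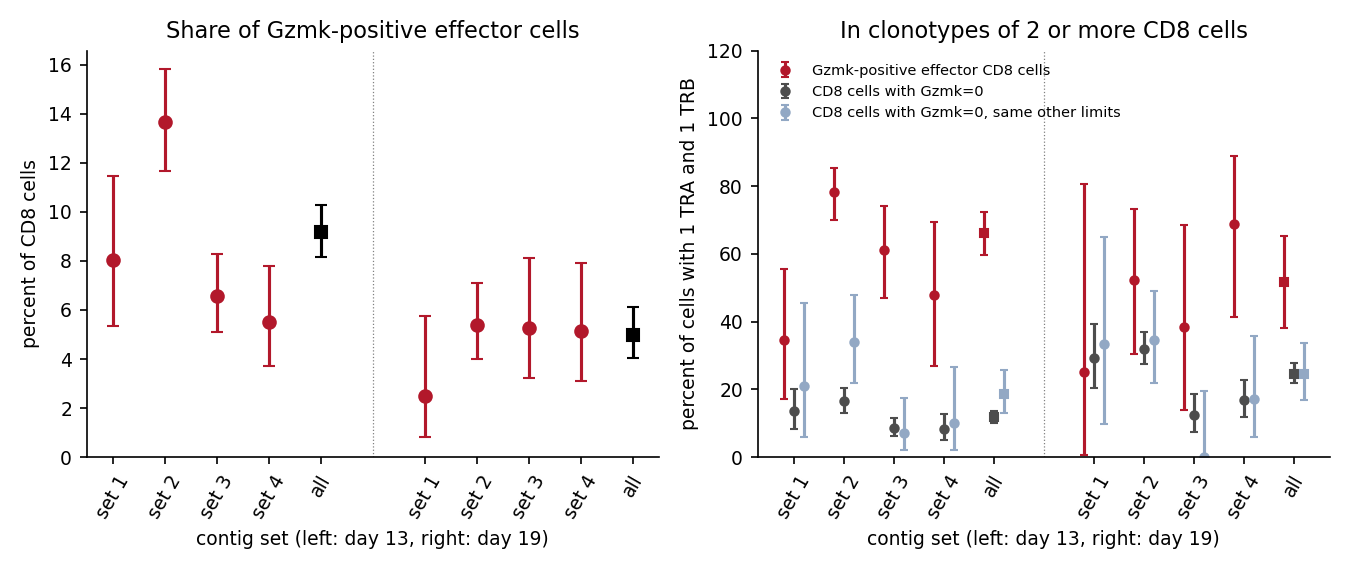
Left, percent of CD8 T cells that were Gzmk-positive effector cells in each of the 4 contig sets per day; right, percent of cells with 1 TRA and 1 TRB chain whose clonotype held at least 2 CD8 cells, for the effector, matched and Gzmk-negative cells. Bars on points are exact 95% binomial intervals; the day-13 shares run from 5.49% to 13.7% and the day-19 shares from 2.51% to 5.40%.

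Cytotoxic genes included several of the largest positive ratios. Across all genes with at least 50 UMIs in the 2 sums together, 322 of 10017 (3.21%) were higher in day-13 effector cells by a log2 ratio of at least 1 and 752 (7.51%) were lower. At day 19, 382 of 9867 (3.87%) were higher and 834 (8.45%) lower, and 592 of 9825 were higher with 1 effector cell per clonotype. Of 16 cytotoxic granule genes, 6 were higher and 1 lower at day 13 (median 0.72 on the log2 scale, against 0.02 over all genes), and 4 were higher and 0 lower at day 19 (0.49 against 0.04). These background shares frame the counts of members of each list below, and the choice of cells used the same RNA.

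Gzma had 1477, 1538, 1020 and 989 CPM in the 4 day-13 sets of effector cells, and 133, 97.9, 75.2 and 162 in the cells without Gzmk. No set overlapped, and the summed levels of 1341 and 106 CPM gave a log2 ratio of 3.66 (3.57 to 3.74). At day 19 Gzma was 1486, 1026, 933 and 520 against 30.4, 45.9, 62.8 and 225, with a log2 ratio of 3.30 (3.16 to 3.43). That level rested on few cells: 18 of 90 had a Gzma UMI and 1 cell held 19.9% of them, whereas 161 of 272 day-13 effector cells had one. Gzmb, the main pro-apoptotic granzyme, had 2360, 4070, 3324 and 2847 CPM at day 13 against 364, 503, 456 and 696. Its log2 ratio was 2.82 (2.78 to 2.87) at day 13 and 1.37 (1.30 to 1.44) at day 19, where the sets stood at 2537, 1657, 2986 and 3749 against 452, 1012, 947 and 1073. Gzmb was lower in the day-19 effector cells than in the day-13 ones by 0.55 on the log2 scale, and higher by 0.90 in the day-19 cells without Gzmk than in the day-13 ones. In matched cells it was lower too, at 1031 CPM at day 13 and 560 at day 19 (-0.88).

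Fasl, the death-receptor ligand, had 172, 166, 186 and 127 CPM in the day-13 effector sets and 76.9, 147, 223 and 155 at day 19. All 8 values exceeded those of the cells without Gzmk, whose sums were 46.8 and 61.2, for log2 ratios of 1.83 and 1.39. Nkg7, a granule membrane protein needed for degranulation, was at 2815 against 1141 CPM at day 13 and at 3198 against 1359 at day 19. Perforin, the pore-forming protein encoded by Prf1, was higher at 75.5 against 32.0 CPM (log2 ratio 1.24) at day 13 and stood at 130 against 70.7 (0.88) at day 19. Serpinb9, which protects cells from their own granzyme B, was at 112 against 71.3 CPM and then at 45.2 against 61.1. The lysosomal gene Lamp1 hardly differed, with log2 ratios of 0.01 and 0.02. The lower member at day 13 was Crtam, an adhesion receptor of activated T and NK cells, at 15.7 against 33.9 CPM.

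Among chemokines, Ccl5 was the most abundant product. Its sets stood at 16578, 14579, 12666 and 7664 CPM at day 13 and at 10199, 10914, 5108 and 7361 at day 19. Cells without Gzmk had 3446, 5186, 3299 and 3868, then 2247, 1802, 2214 and 1620. The groups did not overlap, and the log2 ratios were 1.74 (1.72 to 1.76) and 2.25 (2.21 to 2.29). Ccl3 and Ccl4, which recruit T cells and myeloid cells, had log2 ratios of 1.26 and 1.04 at day 13 and 1.21 and 1.70 at day 19. Among barcodes of at least 8000 UMIs the day-13 Ccl3 ratio was -0.18. Xcl1, which attracts cross-presenting dendritic cells, went the other way. It was at 37.2, 34, 27.9 and 56.2 CPM in the day-13 effector sets against 380, 402, 330 and 372. At day 19 it was at 51.3, 42.1, 20.9 and 17.9 against 475, 359, 385 and 422, so the log2 ratios were -3.37 (-3.71 to -3.05) and -3.58 (-4.23 to -3.01). Against matched cells Xcl1 was lower by 2.68 and 2.76 on the same scale. Ifng and Tnf, the effector cytokines, were at 287 against 157 and 73.7 against 54.4 CPM at day 13, and at 253 against 179 and 67.1 against 54.8 at day 19. None of these 4 ratios reached 1 on the log2 scale.

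**Figure D2:**
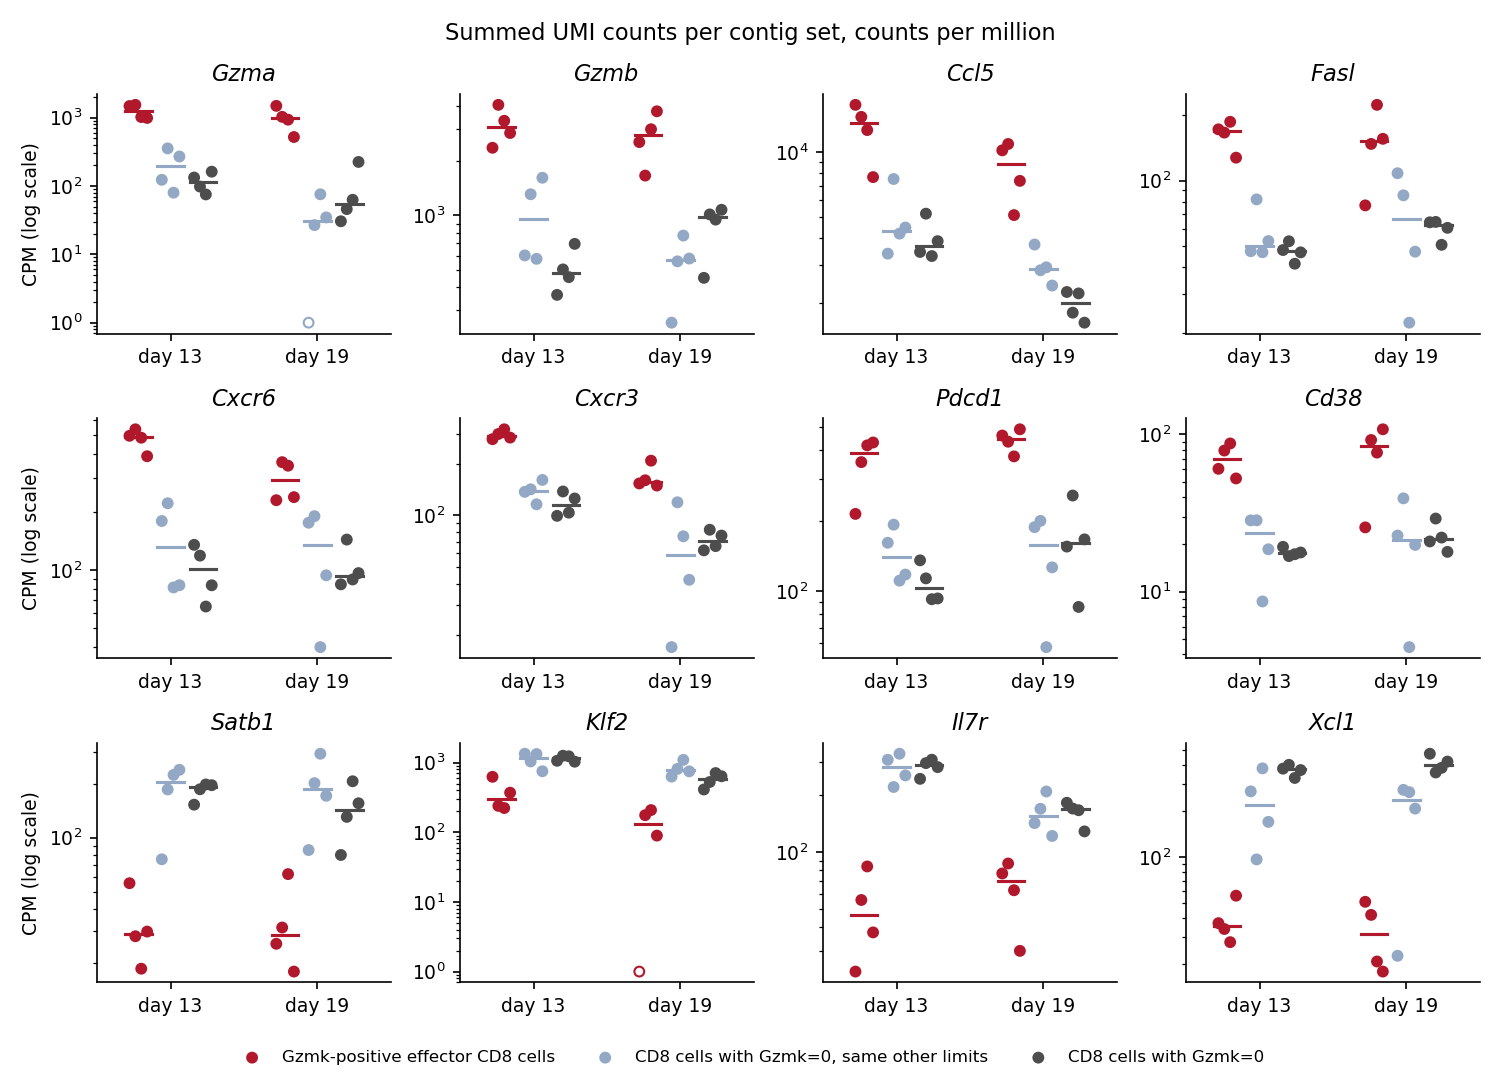
CPM of summed UMIs on a log axis in each contig set (points), with the median of the 4 sets (line), for 12 genes in Gzmk-positive effector, matched and Gzmk-negative CD8 cells at day 13 and day 19. Open circles at 1 mark sets with no UMI of the gene; Gzma, Gzmb, Ccl5, Fasl and Cxcr6 lie above and Klf2, Il7r and Xcl1 below the Gzmk-negative sets in all 4 sets of each day.

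Some inhibitory receptor genes were higher and others were not. Of 13 checkpoint genes 6 were higher and 1 lower at day 13, and 4 higher and 2 lower at day 19, with medians of 0.55 and 0.94 beside 0.58 and 0.45 for the T cell genes. Pdcd1, encoding PD-1, was at 214, 355, 419 and 431 CPM in the day-13 effector sets and at 461, 434, 376 and 490 at day 19. In cells without Gzmk it ranged from 92.5 to 136 and from 85.7 to 256, with no overlap and log2 ratios of 1.81 and 1.19. Lag3 had log2 ratios of 1.60 and 1.16, although day-19 set 1, with 5 effector cells, was at 51.3 CPM and below the 155 of its comparison cells. Cd38 and Entpd1 encode ectoenzymes that consume NAD and extracellular ATP. Cd38 was at 76.0 against 17.5 CPM (2.12) at day 13 and 89.0 against 24.0 (1.89) at day 19. Entpd1 was at 90.4 against 24.7 (1.87) and then 91.8 against 48.0 (0.94). Tigit and Ctla4 had log2 ratios of 1.10 and 1.02 at day 13 and of 0.95 and 1.15 at day 19. Of 12 exhaustion-related transcription genes with enough UMIs, Tox (1.21 and 1.20) and Prdm1, which encodes Blimp-1 (1.83 and 1.26), were higher on both days. Against matched cells Tox was at 1.05 and 0.80. In that comparison 2 such genes were higher and 3 lower (Ikzf2, Nr4a3 and Maf) of 12 at day 13, with a median of 0.12, and 0 of 11 passed 1 in either direction at day 19. Ikzf2, encoding Helios, was lower at day 13, at 37.8 against 151 CPM (-2.0). At day 19 it was at 69.9 against 128 (-0.87) and, in matched cells, 74.0 (-0.08). The effector regulators Id2 (1.08 and 0.92) and Tbx21 (0.74 and 0.51) had positive ratios, while Eomes had -0.34 and -0.39.

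Several receptors that place T cells in tissue were higher. Cxcr6, the receptor for membrane-bound CXCL16, was at 497, 537, 486 and 390 CPM in the day-13 effector sets and at 231, 363, 348 and 239 at day 19. Cells without Gzmk ranged from 64.9 to 136 and from 84.6 to 144, and log2 ratios were 2.41 (2.30 to 2.53) and 1.49 (1.29 to 1.69). Of 9 chemokine receptor genes, 5 were higher and 2 lower on each day. Cxcr3 had log2 ratios of 1.34 and 1.14, Ccr2 of 1.68 and 1.64, and the gut-homing receptor Ccr9 of 2.57 and 2.90. The day-19 Ccr9 value came from 21 UMIs in 7 cells, 61.9% of them in 1 cell, and it was higher in 2 of 4 sets. Among 11 residency genes, 5 were higher and 1, Ahr, lower (12.6 against 36.0 CPM) at day 13, and 5 higher and 0 lower at day 19. Against matched cells it was 2 higher and 1 lower of 9, and 2 higher of 6. Itga1 (CD49a) was at 37.3 against 11.6 CPM and at 108 against 33.3, and Itgae (CD103) at 48.1 against 22.8 and at 42.5 against 10.6. Cd69, another residency and activation gene, was at 498 against 616 and 281 against 402 CPM. Itga4, the subunit of the integrin VLA-4 that lets T cells cross brain vessels, was higher at day 19 by 1.17 on the log2 scale and at 302 against 154 CPM at day 13 (0.97).

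Progenitor and memory genes were mostly lower, beyond Tcf7, which the rule set to 0. Of 15 such genes, 10 were lower and 0 higher at day 13, and 12 lower and 0 higher at day 19. Their median was -1.92 on each day. Klf2, the factor that maintains the egress receptor S1pr1, was at 627, 240, 223 and 371 CPM at day 13 and at 0, 176, 209 and 89.7 at day 19, against sums of 1183 and 572. Il7r, the IL-7 receptor chain of memory cells, had log2 ratios of -2.35 and -1.22, Satb1 of -2.71 and -2.06, Lef1 of -1.92 on each day, and Id3 of -3.41 and -1.99. Cd27 (0.32 and -0.05) and Cd28 (0.25 and 0.38), which also mark earlier stages, were not lower. Against matched cells, which also lack Tcf7, 9 of 14 were lower at day 13, with a median of -1.90, and 9 of 13 at day 19 (-1.84). Over all genes in that comparison, 221 of 6844 (3.23%) were higher and 196 (2.86%) lower at day 13, and 139 of 4888 (2.84%) and 105 (2.15%) at day 19. Klf2 was lower there by 1.96 and 2.42 on the log2 scale.

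Genes outside the lists with the largest ratios included Actn2, an alpha-actinin known from muscle, at 60.2 against 8.29 CPM at day 13 (2.86, in 73 of 272 cells). At day 19 Actn2 was at 50.7 against 6.51 (2.96, in 28 of 90 cells), and it was higher in all 8 sets. Mt3, a metallothionein known from brain, was at 24.3 against 2.37 CPM at day 13, from 54 UMIs in 36 cells. Havcr2-positive, Gzmc- or Gzmf-positive and Mki67-positive cells, defined below, had 26.9, 23.5 and 24.1 CPM, and at day 19 effector cells had 4.11 against 3.22. Stk32c, a kinase, had log2 ratios of 2.55 and 2.04 from 30 and 18 UMIs. Nsg2, a gene known from neurons and naive T cells, was at 2.7 against 84.7 CPM at day 13, a log2 ratio of -4.97 (-6.42 to -3.85) from 6 UMIs.

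Most interferon-response genes had positive ratios in the effector cells, but few reached 1. Of 17 measured, 16 had positive log2 ratios on each day, with medians of 0.82 and 0.57 beside 0.58 and 0.45 for the T cell genes. A log2 ratio of 1 was reached by 2 at day 13 and 3 at day 19, beside 3.21% and 3.87% of all genes. Ifi27l2a was among them, at 6621 against 2647 CPM (1.32) and 3402 against 1665 (1.03). Ifit1, an RNA-binding antiviral protein, was at 490 against 239 CPM at day 13. Against matched cells 15 of 17 remained positive at day 13, but the median was 0.37 and none reached 1. At day 19 only 10 were positive, with a median of 0.03, and Ifit1 and Isg15 had ratios of -0.51 and -0.27. Immediate-early genes of TCR signalling were not higher: 15 of 17 had negative ratios at day 13 (median -0.55) and 12 of 18 at day 19 (-0.10). Junb was at 1651 against 2854 CPM at day 13, and Nr4a1 at 207 against 302.

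Natural killer receptors were mixed, with 2 higher and 3 lower of 13 at day 13, and 2 higher and 1 lower at day 19. Against matched cells, held to the same limit of Klra1, Klra6 and Klra7, 1 was higher and 0 lower of 9 on each day. Klrg1, an inhibitory receptor of effector cells, was at 26.5 against 6.12 CPM and 15.1 against 3.65, while in matched cells it was at 19.3 and 10.3. Its day-19 value came from 11 UMIs in 6 cells, 36.4% of them in 1 cell, and it was higher in 3 of 4 sets. The NK markers Ncr1, Klra4 and Klra8 were at 0 on both days. The NK marker sum of 1644 CPM in day-13 effector cells, against 610.5 without Gzmk, includes Gzma. Cell cycle genes beyond Mki67 had 7 of 16 lower at day 13 and 12 of 16 lower at day 19 against cells without Gzmk. Against matched cells, which also lack Mki67, the day-13 direction was the opposite: 6 of 11 were higher and 0 lower, with a median of 1.07. Ube2c, a ubiquitin enzyme of mitosis, was at 43.2 against 4.68 CPM there, in 54 of 272 effector cells. Pclaf, a replication factor partner, was at 29.2 against 2.93, with 29.2% of its UMIs in 1 cell. At day 19, 0 of 8 passed in either direction (median 0.23). Top2a was at 22.5 against 57.8 CPM at day 13, while matched cells had 11.7, so its log2 ratio changed from -1.36 to 0.94.

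Cells around the Gzmk threshold did not follow 1 order for all genes. At day 13, 55 cells with exactly 1 Gzmk UMI that met every other limit fell just outside, and 34 with 2 UMIs fell just inside. Gzma was at 635 CPM just outside, 523 just inside and between 1333 and 1546 in cells with 3 or more. Gzmb was at 1506, 1710 and between 3171 and 4843 in the same cells. Klf2 was 1123 CPM in matched cells, 871 with 1 Gzmk UMI, 488 with 2, and 142 in the 58 cells with 10 or more. Deeper cells reach a given Gzmk count more easily: the median depth was 6027 UMIs with 1 Gzmk UMI and 9234.5 with 10 or more, and its part in these levels was not tested. At day 19, 26 cells lay just outside and 24 just inside. Gzmb was at 1442 CPM outside and 2289 inside, while Gzma was at 1712 and 12.3, and Klf2 at 88.5 and 209.

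Surface protein was read from a separate library of 138 antibody tags. Of 135 tags with at least 200 UMIs, none was higher by a log2 ratio of 1. In all, 3 (2.22%) were lower at day 13 and 2 (1.48%) at day 19. A ratio of 0.5 in either direction was reached by 7 (5.19%) and 8 (5.93%) tags, and against matched cells by 4 (2.96%) and 6 (4.44%). Ly6A, the activation antigen Sca-1, was higher in 4 of 4 sets each day, with log2 ratios of 0.52 and 0.61, beside 1.34 and 1.24 for its gene Ly6a. CD86 was likewise higher in 4 of 4 sets each day (0.28 and 0.58), although against matched cells the day-13 ratio was -0.02. CD49D, the product of Itga4, had 0.18 at day 13, with sets of 35.0 to 36.6 against 31.1 to 32.9 per 10000. Tags for products of several genes with high RNA ratios barely differed: CD279 (PD-1) had 0.06 and 0.07, CD223 (LAG-3) 0.03 and 0.06, and KLRG1 0.05 and 0.14. CD38 had -0.33 and 0.46. Isotype control tags took 0.611% of tag UMIs in day-13 effector cells and 0.609% in cells without Gzmk.

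The effector cells had the highest Ccl5, Cxcr6, Cxcr3 and Ccr2 levels of 6 CD8 states on both days, while Havcr2-positive cells had more Prf1 and Tnfrsf9. The states were drawn with the same cell limits and overlap among themselves. They were cells with Tcf7 but no Havcr2, cells with Havcr2 but no Tcf7, Gzmc or Gzmf, cells with Gzmc or Gzmf, cells with at least 2 UMIs of Klra1, Klra6 and Klra7 (Ly49-positive), and cells with Mki67. Ccl5 was 13481 CPM in day-13 effector cells against 5658 in Havcr2-positive, 5246 in Tcf7-positive and 1815 in Gzmc- or Gzmf-positive cells. Cxcr6 was 503 against 349 in Havcr2-positive and 81.9 in Tcf7-positive cells. Cd38 was 76.0 against 45.5 and 18.4, and Cxcr3 300 against 137 and 157. Prf1 ran the other way, at 75.5 against 129 in Havcr2-positive and 167 in Gzmc- or Gzmf-positive cells, and Tnfrsf9, the activation receptor 4-1BB, was 54.4 against 255 and 297. At day 19 Gzmb was 2445 CPM in effector cells, 1458 in Havcr2-positive and 3118 in Gzmc- or Gzmf-positive cells. Xcl1 was 779.9 CPM in Ly49-positive, 326 in Tcf7-positive, 61.8 in Havcr2-positive and 35.5 in effector cells at day 13. Pdcd1 and Lag3 were close to the Havcr2-positive level, at 366 against 417 and 316 against 343 CPM at day 13.

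**Figure D3:**
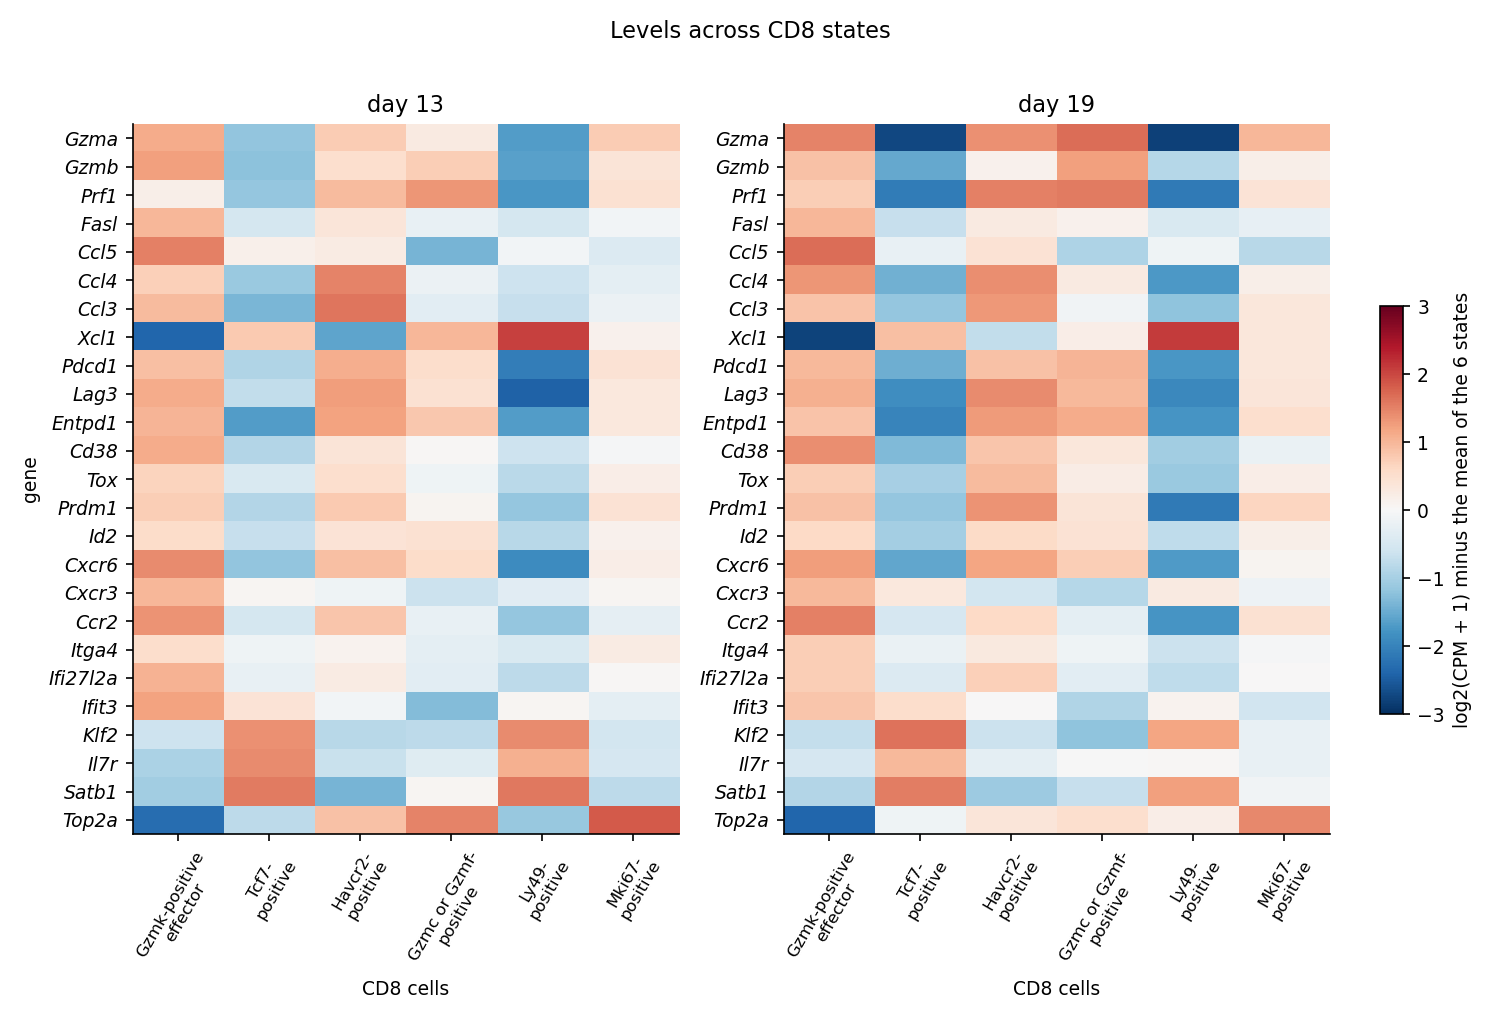
Colour gives log2(CPM + 1) of summed UMIs minus the mean of the 6 CD8 states shown, for 25 genes (rows) at day 13 and day 19; red is above and blue below that mean. Gzmk-positive effector cells have the highest Ccl5, Fasl, Cd38, Cxcr6, Cxcr3 and Ccr2 of the 6 states and the lowest Xcl1 on both days.

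A larger share of effector cells than of cells without Gzmk lay in expanded clonotypes in 7 of 8 contig sets. At day 13, 151 of 228 effector cells with 1 TRA and 1 TRB chain (66.2%, interval 59.7 to 72.3) belonged to a clonotype with at least 2 CD8 cells in its set. The share was 149 of 1262 (11.8%, 10.1 to 13.7) in cells without Gzmk and 30 of 160 (18.8%) in matched cells. At day 19 it was 29 of 56 (51.8%, 38.0 to 65.3) against 209 of 847 (24.7%, 21.8 to 27.7) and 27 of 110 (24.5%). The day-19 effector share was 39.0% (24.2 to 55.5) without barcodes holding 5 or more macrophage UMIs, where the cells without Gzmk were at 19.8%. The day-13 effector sets stood at 34.6%, 78.4%, 61.1% and 47.8%, and the cells without Gzmk at 13.5%, 16.6%, 8.60% and 8.37%. The day-19 effector sets stood at 25.0%, 52.2%, 38.5% and 68.8%, against 29.2%, 32.0%, 12.3% and 16.8%. The exception was day-19 set 1, with 4 such effector cells. Clonotypes of at least 5 CD8 cells held 48.2% of the day-13 effector cells, against 4.68% of the cells without Gzmk. At day 19 they held 23.2%, against 16.6% and, in matched cells, 19.1%, and the effector share was above its comparison in set 4 alone (8 of 16 cells against 18 of 202). In sets 1 to 3 it was 0%, 17.4% and 7.69%, against 11.5%, 24.1% and 10.3%. For comparison, Havcr2-positive cells were expanded in 71.6% and 75.2%, Tcf7-positive cells in 13.1% and 6.91%, and Ly49-positive cells in 2 of 299 and 0 of 199. Clone mates are counted together, so these intervals, which take cells as independent, are too narrow.

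The expanded clones were not made of effector cells alone. Of the 151 expanded day-13 effector cells, 118 (78.1%) had a clone mate with Mki67, 101 (66.9%) with Tcf7 and 86 (57.0%) with Havcr2. Mates with Tcf7 were commoner than mates with Havcr2 in set 2 alone (77 against 47 of 98 cells), and the numbers were 4 and 5 of 9 in set 1, 17 and 25 of 33 in set 3, and 3 and 9 of 11 in set 4. A mate with Gzmc or Gzmf was found for 35 (23.2%), and an Ly49-positive mate for 0 of 151, where only 2 of 299 Ly49-positive cells were in an expanded clonotype at all. In all 141 (93.4%) shared their clonotype with at least 1 of these states. Of the 29 at day 19, 15 (51.7%) had a mate with Mki67, 12 (41.4%) with Tcf7, 14 (48.3%) with Havcr2 and 12 (41.4%) with Gzmc or Gzmf, and 26 (89.7%) with any. Clone mates share these values, so the cells are not independent and no interval is given. The 2959 day-13 CD8 cells included 1741 Tcf7-positive, 276 Havcr2-positive, 440 Mki67-positive and 117 Gzmc- or Gzmf-positive cells. The 1800 at day 19 included 771, 248, 431 and 382. Larger clonotypes can fill more states and commoner states can give more mates, and that part was not tested. Day 13 clonotype 1, whose CDR3s are printed above, had 29 CD8 cells in set 2: 11 effector cells, 9 with Tcf7 and 0 with Havcr2. Day 13 clonotype 2 had 24 cells in the same set: 10 effector cells, 2 with Tcf7 and 10 with Havcr2. Day 19 clonotype 1 had 22 cells in set 4: 5 effector cells, 0 with Tcf7, 3 with Havcr2 and 9 with Gzmc or Gzmf, and 5 more CD8 cells carried it in another set. Clones with similar numbers of effector cells thus differed in which other states they held. The 228 day-13 effector cells fell into 136 clonotypes, 99 of them with 1 effector cell, and the 56 at day 19 into 48, of which 44 had 1.

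**Figure D4:**
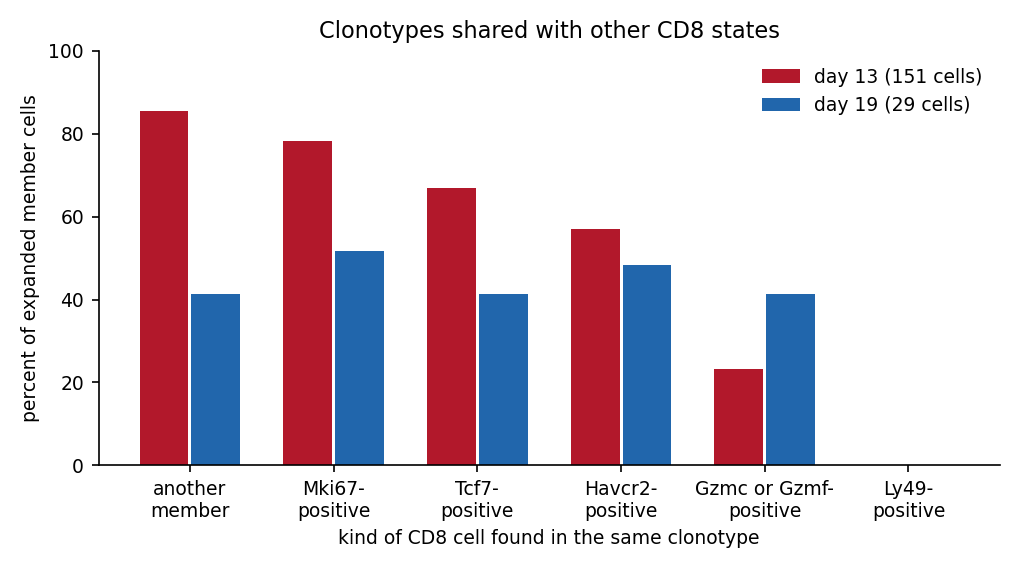
Percent of Gzmk-positive effector cells in expanded clonotypes (151 cells at day 13, 29 at day 19) whose clonotype also held another effector cell or a cell of each other CD8 state in the same contig set. At day 13 the shares with a mate of the Mki67-positive (78.1%), Tcf7-positive (66.9%) and Havcr2-positive (57.0%) states are pooled over sets that differ in their order, and Ly49-positive cells were never among them.

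V gene use was compared without a test. At day 13 TRBV29 was carried by 45 of 228 effector cells (19.7%), spread over 29 clonotypes and all 4 sets, against 73 of 1262 cells without Gzmk (5.78%). At day 19 it was carried by 3 of 56 (5.36%) against 4.49%. TRBV10 was carried by 9 of 56 day-19 effector cells (16.1%), in 5 clonotypes and 3 sets and including day 19 clonotype 1, against 3.54%. At day 13 it was carried by 2.19% against 4.28%.

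Between the days, 114 of 6086 genes (1.87%) were higher in day-19 than in day-13 effector cells and 263 (4.32%) lower by a log2 ratio of at least 1. Without day-13 set 2 the counts were 61 higher and 120 lower of 4592, and with 1 effector cell per clonotype 57 and 168 of 4054. In cells without Gzmk 419 of 10799 (3.88%) were higher and 257 (2.38%) lower, and in matched cells 62 of 6061 (1.02%) and 172 (2.84%). In the interferon list all 17 genes had negative ratios in the effector cells, 8 of them past 1, with a median of -1.0 (-0.07 over all genes). The cells without Gzmk had 17 negative, 12 past 1 and a median of -1.04, and matched cells 17, 8 and -0.99. The lower interferon response at day 19 was thus shared by the comparison cells. Isg15, a ubiquitin-like antiviral protein, was at 1222, 2464, 1469 and 1420 CPM in the day-13 effector sets and at 0, 387, 1072 and 490 at day 19. No day-19 set reached a day-13 set, and the log2 ratio was -1.91 (-2.07 to -1.76). The summed list did overlap, at 10665, 20501, 15565 and 12949 CPM at day 13 and 2665, 7242, 12966 and 6566 at day 19. Ifit1 was at 251, 605, 383 and 378 and then at 0, 94.7, 181 and 77.7, a log2 ratio of -2.25 (-2.61 to -1.92). Ifit3 was at 386, 916, 564 and 584 and then at 76.9, 197, 355 and 132. Reads of Ifit3 and its near copy Ifit3b can be hard to assign, so the Ifit3 values are uncertain.

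**Figure D5:**
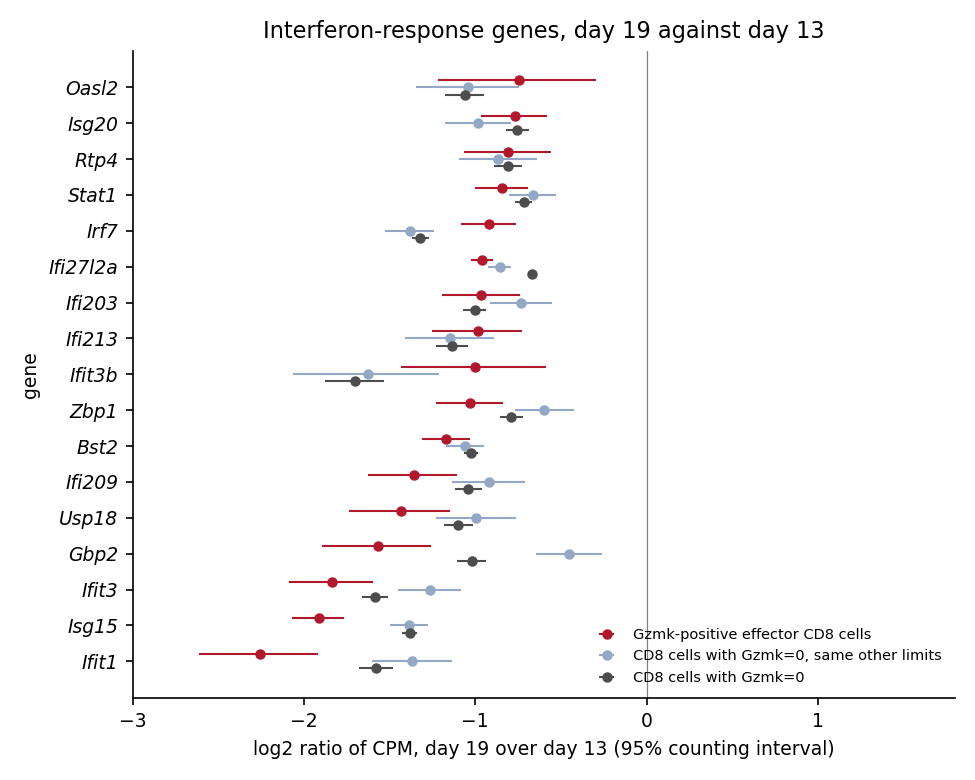
Log2 ratio of CPM, day 19 over day 13, with 95% counting intervals, for 17 interferon-response genes in Gzmk-positive effector, matched and Gzmk-negative CD8 cells. All points lie left of 0 in the 3 groups, with Ifit1 lowest in the effector cells at -2.25.

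Since these genes differed together, their promoters were read from RefSeq (GRCm38.p6), in the 250 bases before each start. The motif searched was GAAANNGAAA on either strand, the core of the interferon-stimulated response element, with overlapping matches counted. It occurred in 8 of 15 promoters of the list, from 12 of 18 genes that matched, and in 978 of 32851 promoters of all genes (2.98%). The genes with it were Bst2, Gbp2, Ifi203, Ifi213, Ifit1, Ifit3, Ifit3b and Isg15. Windows of the 3 genes given above are shown, each on the strand of its gene, with the matches in capitals.
Ifit1, chr19:34640765-34640833, plus strand: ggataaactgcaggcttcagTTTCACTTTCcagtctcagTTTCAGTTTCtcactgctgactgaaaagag
Ifit3, chr19:34583353-34583436, plus strand: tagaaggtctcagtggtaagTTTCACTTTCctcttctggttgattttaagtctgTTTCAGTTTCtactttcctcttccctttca
Isg15, chr4:156200855-156200916, minus strand: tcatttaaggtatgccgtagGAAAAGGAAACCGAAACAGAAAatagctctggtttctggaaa
The first match began 104 bases before the start of Ifit1, 156 before Ifit3 and 78 before Isg15. A match describes the letters only.

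Among circulation and egress genes 11 of 11 had negative day ratios in effector cells (3 past 1, median -0.51), as did 11 of 12 in cells without Gzmk and 10 of 10 in matched cells. Single genes with larger day differences follow. Ifitm1, an antiviral membrane protein, was at 65.0, 57.3, 5.58 and 7.49 CPM in the day-13 effector sets and at 1819, 1244, 0 and 562 at day 19. The log2 ratio was 4.46 (4.14 to 4.80), but day-19 set 3 was at 0, only 25 of 90 cells had a UMI and 1 cell held 17.9% of them. In cells without Gzmk the ratio was 2.85. Tnfrsf9 was at 65.0, 52.3, 39.1 and 86.2 CPM and then at 76.9, 287, 271 and 305 (2.35, interval 2.01 to 2.68), against 1.06 in cells without Gzmk. Klre1, an NK-type lectin receptor, was at 9.29, 18.3, 11.2 and 15 and then at 231, 176, 76.6 and 23.9, so the days did not overlap (3.03). Csf1, the macrophage growth factor, was at 4.95 and 57.5 CPM (3.54, from 11 and 42 UMIs). In matched cells it was also higher at day 19, at 8.19 and 49.1 CPM (2.58). Bcl2, the survival factor, was at 121, 122, 119 and 127 CPM at day 13 and at 333, 239, 313 and 347 at day 19. Its log2 ratio was 1.22 (0.95 to 1.48), against -0.04 in cells without Gzmk and 0.33 in matched cells. Itga1 was higher by 1.54 in effector cells and by 1.53 in cells without Gzmk.

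Slamf6, a progenitor marker, was at 55.7, 41.5, 52.1 and 33.7 CPM at day 13 and at 0, 7.89, 0 and 5.98 at day 19, a log2 ratio of -3.02 (-4.93 to -1.62) from 99 and 4 UMIs. Stat4, which transmits IL-12 signals, was at 227 and 98.6 CPM (-1.20). It was lower at day 19 in cells without Gzmk (204 and 121) and in matched cells (221 and 114) as well. Cxcr3 (-0.84) and Cxcr6 (-0.63) had no overlap between days but did not reach 1. All 8 chemokine receptor genes measured had negative ratios, 1 of them past 1 (median -0.60), beside 7 of 10 (-0.58) in cells without Gzmk and 7 of 8 (-0.59) in matched cells. Prf1 was at 75.5 and 130 CPM (0.78), Pdcd1 at 366 and 437 (0.26) and Ccl5 at 13481 and 8919 (-0.60). Fscn1 and Ccr7, known from mature dendritic cells, were at 133 and 139 CPM at day 13 and at 5.48 and 21.9 at day 19. With the rule applied to barcodes thinned to 5000 UMIs, their day ratios turned to 0.63 and 0.47. The day-13 Fscn1 level came mostly from set 3, at 354 CPM against 13.9, 78.0 and 30.0 in the others. The 12 dendritic markers summed to 2314 CPM (sets 1619 to 3962) at day 13 and 2209 (512 to 2512) at day 19, with Clec9a and Xcr1 at 0 on both days and Flt3 and Cd209a at day 19, and their part in these ratios was not tested.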

How the data were processed

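Matrices of raw UMI counts per feature and barcode (32285 genes, 138 antibody tags) and TCR contig tables with UMI counts per contig were deposited by the authors, unfiltered for cells. The submitters' processing notes name bcl2fastq 2.20, Cell Ranger 4.0.0, STAR 2.7.5c, Seurat and R 4.1.2 with mm10. UMI counts were summed per day and contig set, scaled to CPM and compared as log2 ratios. Intervals at 95% (exact Poisson for ratios, Clopper-Pearson for shares) cover counting error only. A sum of 0 was set to a floor of 3 counts per sum. Genes with at least 50 UMIs in the 2 sums were counted as higher or lower at a log2 ratio of at least 1. No test was run, since each day is 1 capture.

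Named genes were the markers, genes of the fixed lists with the highest sums or largest ratios, and the 10 highest and 10 lowest genes per comparison with the same sign in at least 3 of 4 sets. Genes of the rule, TCR, ribosomal, mitochondrial and sex-linked genes were left out. Genes named with values but outside these, such as Stat4 between the days, belong to the lists. The cells, lists and rules were chosen with earlier results of these data known. Doublets were not called; alternatives left out barcodes with extra TCR chains, the 8% of CD8 cells with most UMIs, and barcodes with at least 5 macrophage UMIs. The ratio script was tested on simulated counts, where more unchanged genes passed a log2 ratio of 1 at day-19 than at day-13 depth.

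Python 3.11.15, numpy 2.4.6, scipy 1.17.1, pandas 2.3.3 and matplotlib 3.10.9 were used. Some genes and a tag of the lists are not reported here.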

Additional observations from a re-analysis of the deposited data

Results flagged for a closer look

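Of 30 groups of 4 contig sets examined, 3 had a set far from the others, where chance gives about 1 in 20. In day-19 set 1 the share of Gzmk-positive effector cells was 2.51%, against 5.14% to 5.40% in the other sets, from 5 cells. The T cell markers of those same 5 cells summed to 3178 CPM, the lowest of the day-19 sets, against 4951 to 5310 in the others. The neutrophil and erythroid markers summed to 7.89 CPM in day-19 set 2 and to 0 in the other sets, with 6 of the 7 genes at 0.

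Barcodes outside the TCR tables that met the rest of the rule were not used above. There were 81 at day 13, or 5.96% (4.76 to 7.35) of the 1360 CD8 barcodes outside the tables, and 16 at day 19, or 4.37% (2.52 to 7.0) of 366. Gzma was at 1602 CPM in the 81 and at 77.9 in the Gzmk-negative CD8 barcodes outside the tables, and Gzmb at 2192 against 480. In the 16 at day 19 Gzma was at 2222 against 188 CPM and Ccl5 at 5524 against 2409. These barcodes, chosen by the same RNA limits, showed the same directions for these genes as the effector cells with a TCR. Pdcd1 in the 16 was at 181 against 163 CPM, where day-19 effector cells with a TCR had 437 against 192.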

How the results depend on the processing

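Each alternative changed 1 choice. For the named genes, 1102 of 1104 recomputed ratios kept their direction against cells without Gzmk at day 13 and 1031 stayed past 1; the numbers were 841 and 770 of 842 at day 19, and 550 and 515 of 553 between the days. The exceptions past zero were Ccl3 at day 13 (-0.18 with at least 8000 UMIs per barcode), Ccr7 (0.47), Fscn1 (0.63) and Il1rn (1.01) between the days with the rule applied to barcodes thinned to 5000 UMIs, and Top2a against matched cells (0.94 at day 13, 1.40 at day 19). The cause was not tested. Many of these genes were named for large ratios in these same data, so kept directions were largely set by that choice. The limit of 5% mitochondrial UMIs and the need for a Cd3 UMI left 272 and 90 effector cells and the same gene counts. Their ratios therefore repeat the main ones within these totals.

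The share of effector cells was 11.1% and 6.44% with at least 1 Gzmk UMI and 6.76% and 2.17% with at least 4, for day 13 and day 19. It was 11.9% at day 13 after thinning and 2.64% at day 19 with 8000 UMIs. Expansion of the cells without Gzmk was 17.2% (17.15) with 8000 UMIs, 18.75% in matched cells, 16.0% after thinning and 9.84% without barcodes holding 5 or more macrophage UMIs at day 13. At day 19 it was 29.4%, 29.7% after thinning and 19.8% without such barcodes. Expansion of effector cells was 58.6% at day 13 with 8000 UMIs; at day 19 it was 39.0% without barcodes holding macrophage UMIs and 43.5% with at least 4 Gzmk UMIs. Sharing with other states was 87.5% at day 13 in barcodes with 80% of multiplexing tag UMIs on 1 tag, and 100% at day 19 with 8000 UMIs, from 8 cells.

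Counts of genes follow the UMI minimum, which sets how many are tested. With at least 200 UMIs, 165 were higher and 292 lower at day 13, 118 and 362 at day 19, and 16 and 92 between the days. With at least 20, 777 were higher at day 19, and 323 higher and 481 lower between the days. Against matched cells 196 were lower at day 13, and 139 higher and 105 lower at day 19. At day 19, 842 were higher with at least 4 Gzmk UMIs and 592 with 1 cell per clonotype. Between the days, 57 were higher and 168 lower with 1 cell per clonotype, and 71 higher without barcodes holding macrophage UMIs.

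Leaving out 1 contig set at a time gave effector shares of 6.53% to 10.5% at day 13 and 4.63% to 5.31% at day 19. Expansion of effector cells ranged from 51.5% to 70.3% and from 45.0% to 55.8%, and of cells without Gzmk from 9.40% to 13.7% and from 18.02% to 27.2%. Genes between the days ranged from 61 to 133 higher and 120 to 353 lower, with 61 and 120 without day-13 set 2. No paired test was run. The contig sets of a day are not treated as replicates, and no label ties them across the days.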

Other observations

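Some cytokine receptor genes separated the effector cells from the cells without Gzmk. Il10ra, the IL-10 receptor chain, was at 283 against 98.0 CPM at day 13 and 163 against 63.2 at day 19, with log2 ratios of 1.53 and 1.37. Against matched cells the ratios were 1.03 and 1.04. Il12rb1, the shared IL-12 and IL-23 receptor chain, was at 48.6 against 19.9 and 57.5 against 28.8 CPM. Il18r1 was lower at day 13, at 22.9 against 56.6 CPM (-1.30), and at 34.2 against 40.9 at day 19 (-0.26). Il4ra was at 27.4 against 95.9 CPM (-1.81) and then at 45.2 against 67.3 (-0.57). Of the 15 genes of this list, 2 were higher and 3 lower at day 13, and 2 higher and 1 lower at day 19.

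Of 12 glycolysis genes, 1 was higher at day 13 and 0 at day 19 by a log2 ratio of at least 1. Aldoa was at 1187 against 606 CPM and then 918 against 776, and Gapdh at 880 against 559 and then 836 against 784. The list's median log2 ratio was 0.38 at day 13 and 0.06 at day 19, and against matched cells 0.38 and 0.37. Of 9 costimulatory receptor genes, 3 were lower and 0 higher at day 13 (5 positive, median 0.25), and 1 was lower at day 19. Tnfrsf4 (OX40) was at 8.54 against 57.2 CPM, Tnfrsf9 at 54.4 against 117 and Tnfrsf18 (GITR), which did not reach 1, at 103 against 183 at day 13. At day 19 they were at 32.9 against 61.0, 277 against 244 and 144 against 184. The GITR tag, CD357, was lower in all 4 day-13 sets, at 8.43 against 12.5 per 10000 tag UMIs.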
